A study of Mus musculus with 4 samples.

Results

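The expression of 8 mouse genes of cholesterol efflux, sterol trafficking and apolipoproteins was followed in 3T3-L1 cells whose CACUL1 level had been changed. The genes were Abca1, Scarb1, Pltp, Apoe, Apod, Npc1, Npc2 and Lrp1. They were chosen by symbol, as the rows whose RefSeq identifiers map to these names, and each gene had 1 row. They are 8 of 13085 genes, and all 8 reached at least 1 FPKM in each of the 4 samples, as did 9563 genes of the whole table.

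3T3-L1 is a murine preadipocyte line that turns into fat-laden adipocytes when it is given an adipogenic mixture, and CACUL1 is a cullin domain protein that the study examined as a repressor of PPARγ, the nuclear receptor that drives adipogenesis. The 4 samples came from 4 stably transfected lines, with 1 sample per line. FLAG cells carried the empty FLAG vector and FLAG-CACUL1 cells overexpressed FLAG-tagged CACUL1, and these lines were selected with G418. sh-Luc cells carried a hairpin against luciferase and sh-CACUL1 cells a hairpin against CACUL1, and these lines were selected with Hygromycin B. All 4 lines were induced at confluence with a mixture of 5 μM rosiglitazone (a PPARγ agonist), 0.5 mM IBMX (a phosphodiesterase inhibitor), dexamethasone at 1 μg/ml and insulin at 5 μg/ml, and the RNA is from day 8 of differentiation. FLAG-CACUL1 was set against FLAG, and sh-CACUL1 against sh-Luc, so that vector type and selection drug are shared within a comparison. The sources used here do not say whether a line was 1 clone or a pool of resistant colonies. With 1 sample per condition no difference was tested, so a difference between conditions cannot be told apart from a difference between 2 lines or 2 cultures.

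Levels are FPKM (the fragments on a transcript divided by its length in kilobases and by the sample's depth), so levels of different genes are compared per length. A difference is the log2 ratio of FPKM + 1, and a gene was called higher or lower at 2-fold or more on this scale. Fragment numbers were estimated from the spacing of the low FPKM values and came to 14450000 in FLAG against 14250000 in FLAG-CACUL1, and 24050000 in sh-Luc against 15000000 in sh-CACUL1. Folds are plain ratios of FPKM, so for low genes they exceed the log2 difference beside them. The 95% intervals given with fold values are exact (Clopper-Pearson) intervals from these estimated fragments, and they cover counting error only. The Cacul1 row stood at 9.61 FPKM in FLAG against 11.78 in FLAG-CACUL1, and 10.25 in sh-Luc against 5.39 in sh-CACUL1. It was thus in the direction of the labels in both comparisons, with log2 differences of 0.27 and -0.82, neither of which reached 2-fold. These values are not centred on the median of all genes, which was 0.09 and -0.30 in the same comparisons.

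Cells take up cholesterol in lipoproteins through endocytic receptors, free it in late endosomes and lysosomes, and move it out of these organelles with the help of NPC1 and NPC2. Surplus cholesterol leaves the cell through ABCA1, which loads it onto lipid-poor apolipoproteins, and is exchanged with high density lipoprotein (HDL) through SCARB1, while the liver X receptors (LXRs) switch on efflux genes when sterols accumulate. Adipose tissue is a large store of unesterified cholesterol, and adipocytes express all of these steps.

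Abca1, Lrp1 and Apod were called in both comparisons with opposite signs, so the 250 bases before their RefSeq start sites are shown to let the windows be compared (GRCm38.p6, all on the minus strand). The windows were chr4:53159896-53160145 for Abca1, chr10:127621149-127621398 for Lrp1 and chr16:31314809-31315058 for Apod. Capitals mark the matches to the motifs searched, and each sequence runs 5′ to 3′ toward the start site.
Abca1: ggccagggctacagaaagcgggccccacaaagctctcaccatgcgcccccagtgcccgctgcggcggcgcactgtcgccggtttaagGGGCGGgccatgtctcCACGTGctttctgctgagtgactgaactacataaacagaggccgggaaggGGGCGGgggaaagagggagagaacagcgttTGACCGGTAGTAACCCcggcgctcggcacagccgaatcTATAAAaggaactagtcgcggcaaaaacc
Lrp1: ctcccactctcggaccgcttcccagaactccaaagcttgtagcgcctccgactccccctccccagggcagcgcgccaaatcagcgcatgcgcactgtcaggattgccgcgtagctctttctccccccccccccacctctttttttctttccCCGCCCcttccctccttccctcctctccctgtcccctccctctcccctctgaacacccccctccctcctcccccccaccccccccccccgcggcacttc
Apod: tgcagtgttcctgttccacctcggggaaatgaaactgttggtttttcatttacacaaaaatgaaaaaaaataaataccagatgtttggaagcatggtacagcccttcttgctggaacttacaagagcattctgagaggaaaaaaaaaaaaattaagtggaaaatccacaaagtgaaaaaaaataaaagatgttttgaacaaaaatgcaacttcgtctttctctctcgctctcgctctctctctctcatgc

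The motifs, read on both strands, were the GC box (GGGCGG), the TATA box (TATAAA), the E-box CACGTG, and direct repeats of AGGTCA with 1 base (DR1) or 4 bases (DR4) between the copies, the repeats with up to 3 mismatches in 12 letters. DR1 is the type of element that PPARγ binds with RXR, and DR4 the type that LXR binds with RXR. The Abca1 window held GC boxes at -163 to -158 and at -97 to -92 from the start, the E-box at -147 to -142, a DR4 match on the opposite strand at -67 to -52 and a TATA box at -29 to -24. The Lrp1 window held 1 GC box, on the opposite strand at -99 to -94, and the Apod window held none of the 5 motifs. The base composition set the 3 windows apart, with a GC content of 61.6% for Abca1, 67.2% for Lrp1 and 36.4% for Apod against a median of 52.4% over all promoters. Such matches are frequent. Among 32851 promoter windows of the same length, 18.5% held a DR4 match, 21.3% a DR1 match, 32.7% a GC box, 12.4% a TATA box and 6.02% the E-box. Of the 8 genes, 6 were searched, with 8 starts in all, and Npc1 and Scarb1 were not. Among the 6 searched, Abca1 was the 1 gene with a DR4 match and Apoe the 1 gene with a DR1 match.

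The 8 genes did not move as a group. In FLAG-CACUL1 against FLAG, Apod and Lrp1 were called higher, as were 7.51% of all genes, and Abca1 and Scarb1 were called lower, as were 7.22% of all genes. In sh-CACUL1 against sh-Luc, Abca1 and Apoe were called higher, as were 4.94% of all genes, and Apod, Npc1, Lrp1 and Pltp were called lower, as were 16.4% of all genes. The median log2 difference of the 8 genes was 0.17 after overexpression and -0.64 after knockdown, beside 0.09 and -0.30 over all genes. Npc2 was the 1 gene called in neither comparison. No test was made over the 8 genes.

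**Figure D1:**
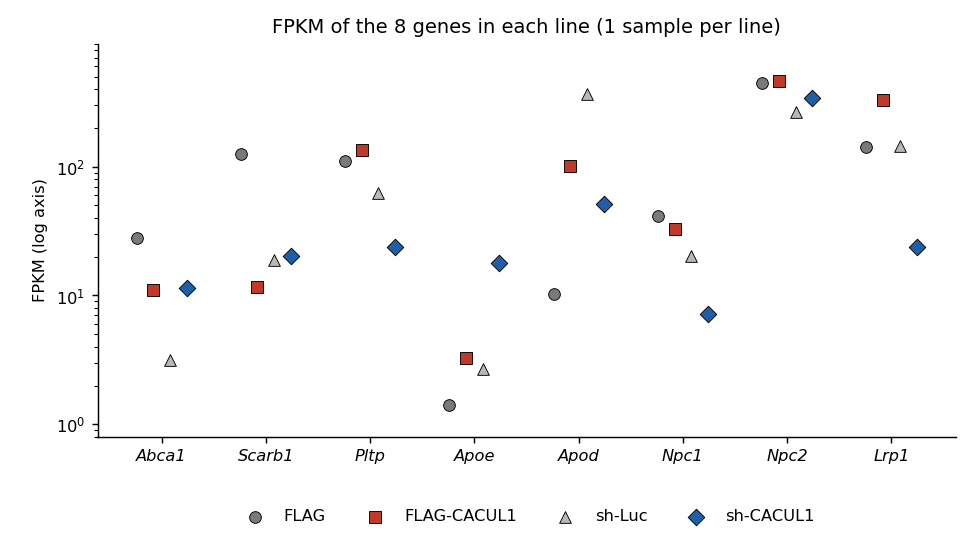
Level of each of the 8 genes (FPKM, log axis) in the 4 lines, with 1 point per sample and so no error bar. Npc2 lay between 265.8 and 462.1 FPKM in all 4 lines, whereas Apod ran from 10.2 in FLAG to 369.4 in sh-Luc.

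**Figure D2:**
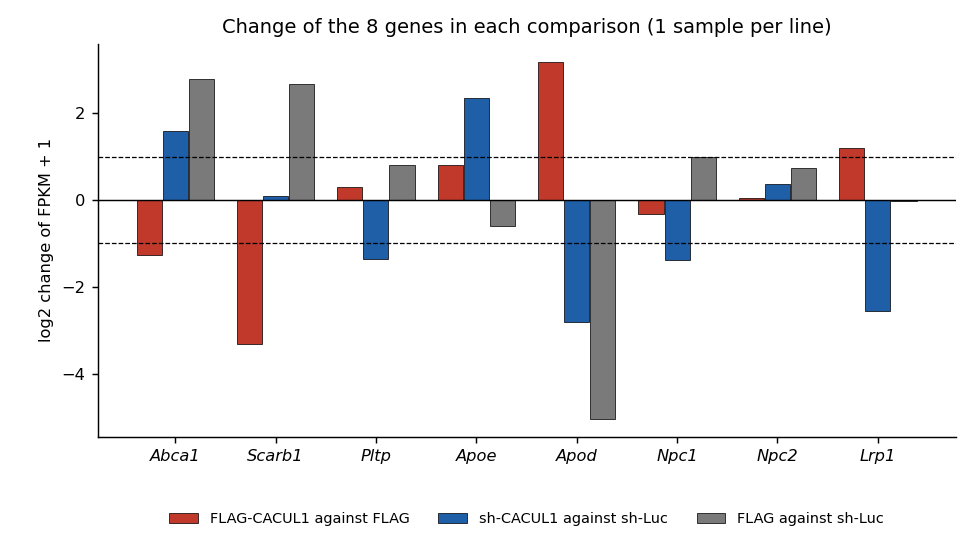
Log2 difference of FPKM + 1 for each gene in FLAG-CACUL1 against FLAG (red), sh-CACUL1 against sh-Luc (blue) and the control FLAG against the control sh-Luc (grey); each bar compares 1 sample with 1 sample and the dashed lines mark 2-fold. The red and blue bars of Abca1, Apod and Lrp1 pass the dashed lines on opposite sides, and the grey bars of Abca1 (2.79), Scarb1 (2.67) and Apod (-5.05) show the controls to differ past 2-fold too.

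Abca1 encodes the ATP-binding cassette transporter that exports cholesterol and phospholipid to lipid-poor apolipoproteins, the first step in the formation of HDL. The gene lies at chr4:53030789-53159988 on the minus strand (RefSeq coordinates on GRCm38.p6, as for the other genes). The start site used for its window, 53159895, lies inside this interval, as do the DR4 match and the TATA box. The transcript of Abca1 is 10262 bases long. Its level was 27.7 FPKM in FLAG against 11.0 in FLAG-CACUL1, and 3.14 in sh-Luc against 11.4 in sh-CACUL1. The highest value was thus in one control and the lowest in the other, with both CACUL1 lines in between at nearly the same level. After overexpression Abca1 was lower by 2.51-fold (2.37 to 2.66), a log2 difference of -1.26. After knockdown it was higher by 3.63-fold (3.34 to 3.96), a log2 difference of 1.58. Abca1 was the 1 gene of the 8 that was lower in FLAG-CACUL1 and higher in sh-CACUL1, a combination found in 1.69% of all genes. Against the other control the signs turned, to 1.54 for FLAG-CACUL1 against sh-Luc and -1.21 for sh-CACUL1 against FLAG.

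Scarb1 encodes scavenger receptor class B type 1, which takes cholesteryl ester from HDL and also lets unesterified cholesterol pass in both directions (chr5:125277087-125341094). It stood at 125.0 FPKM in FLAG against 11.7 in FLAG-CACUL1, and 18.8 in sh-Luc against 20.2 in sh-CACUL1. FLAG alone was high, and the other 3 lines lay close together. Scarb1 was lower by 10.7-fold after overexpression (9.66 to 11.9), the largest decrease among the 8 genes. Of 2245 genes with transcripts of 2000 to 3000 bases and at least 1 FPKM in all 4 samples, only 5, Scarb1 included, were as low. In sh-CACUL1 it was 1.07-fold higher than in sh-Luc (0.973 to 1.18), an interval that includes no difference. The low value in FLAG-CACUL1 was less marked beside sh-Luc, with a log2 difference of -0.65 that was under 2-fold.

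Pltp encodes phospholipid transfer protein, a secreted protein that moves phospholipids between lipoproteins and remodels HDL (chr2:164839518-164857708). Its level was 109.6 FPKM in FLAG against 135.2 in FLAG-CACUL1, and 62.6 in sh-Luc against 23.6 in sh-CACUL1. The sh-CACUL1 line was the low one. Pltp was 2.65-fold lower after knockdown (2.43 to 2.89), a log2 difference of -1.37, and 1.23-fold higher after overexpression (1.17 to 1.30), under 2-fold. With median-of-ratios scaling, which centres the samples on each other, the knockdown value became -0.91 and was no longer 2-fold.

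Apoe encodes apolipoprotein E, the ligand through which lipoprotein receptors take up remnant particles and an acceptor of effluxed cholesterol. The gene lies at chr7:19696244-19701310. It was the least abundant of the 8 genes in FLAG, FLAG-CACUL1 and sh-Luc, at 1.42, 3.25 and 2.69 FPKM, and reached 18.0 FPKM in sh-CACUL1. Behind these values stood 29, 65, 91 and 380 estimated fragments, so the 3 low values are the least precise of the set. Knockdown left Apoe 6.69-fold above sh-Luc (5.31 to 8.51), a log2 difference of 2.36. Of 2130 genes with transcripts of 1000 to 2000 bases and at least 1 FPKM in all 4 samples, 14, Apoe included, were as high. FLAG-CACUL1 was above FLAG by a ratio of 2.29 (1.45 to 3.65), which the added 1 FPKM brought to a log2 difference of 0.81. Without a pseudocount the value was 1.19 and Apoe would have been called higher in both conditions. In sh-CACUL1 it was higher than in either control, with a log2 difference of 2.97 against FLAG.

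Apoc1, an apolipoprotein gene that lies next to Apoe, 3584 bases away, followed another course. It stood at 62.3 FPKM in FLAG against 13.2 in FLAG-CACUL1, and 2.71 in sh-Luc against 43.5 in sh-CACUL1. Apoe and Apoc1 were thus both higher after knockdown, whereas in FLAG Apoe was at its lowest and Apoc1 at its highest.

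Apod encodes apolipoprotein D, which belongs to the lipocalins rather than to the classical apolipoproteins, carries small hydrophobic molecules and is made by fibroblasts among other cells. The gene lies at chr16:31296192-31314808. Its level was 10.2 FPKM in FLAG against 101.6 in FLAG-CACUL1, and 369.4 in sh-Luc against 51.7 in sh-CACUL1, the widest range of the 8 genes. The controls were again the 2 extremes, in the reverse order of Abca1. After overexpression Apod was 9.96-fold higher (8.69 to 11.4), a log2 difference of 3.19. Of 2130 genes of 1000 to 2000 bases with at least 1 FPKM in all 4 samples, 3, Apod included, reached it. After knockdown it was 7.15-fold lower (6.74 to 7.58), a log2 difference of -2.81. Between the controls the difference was larger than either of these, with FLAG 36.2-fold below sh-Luc (31.8 to 41.4). Against the other control the signs turned, to -1.85 for FLAG-CACUL1 and 2.23 for sh-CACUL1.

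Npc1 and Npc2 encode the proteins that hand unesterified cholesterol from the lumen of late endosomes and lysosomes to the limiting membrane, NPC2 being the soluble carrier and NPC1 the membrane protein that receives it. Loss of either causes the same lysosomal cholesterol storage disease. Npc1 stood at 41.3 FPKM in FLAG against 32.7 in FLAG-CACUL1, and 20.4 in sh-Luc against 7.24 in sh-CACUL1. Npc1 was 2.82-fold lower in sh-CACUL1 than in sh-Luc (2.57 to 3.09), a log2 difference of -1.38, and was below every other line there. FLAG-CACUL1 was 1.26-fold below FLAG (1.20 to 1.33). The knockdown value was -0.98 after quantile normalization and -0.94 after median-of-ratios scaling, both just under 2-fold.

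Npc2 (chr12:84754559-84773112) was the most abundant of the 8 genes in 3 of the 4 lines, at 462.1 FPKM in FLAG-CACUL1, 447.6 in FLAG and 343.4 in sh-CACUL1. In sh-Luc it stood at 265.8 and Apod was higher. It was the steadiest, with 1.74-fold between its highest and lowest level. Its log2 difference was 0.05 after overexpression and 0.37 after knockdown. In sh-CACUL1 against sh-Luc the partner genes thus had opposite signs. The ratio was 0.355 for Npc1 (0.324 to 0.389) and 1.29 for Npc2 (1.27 to 1.32). These intervals cover counting error only, and a difference between lines or cultures was not tested. For Npc2 the log2 difference between the 2 controls, 0.75, was larger than that after knockdown.

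Lrp1 encodes a large endocytic receptor for apolipoprotein E-bearing remnants, proteases and matrix proteins, and is abundant in fibroblasts and adipocytes (chr10:127538157-127621148). Its level was 143.2 FPKM in FLAG against 328.1 in FLAG-CACUL1, and 145.4 in sh-Luc against 23.7 in sh-CACUL1. Unlike Abca1, Scarb1 and Apod, Lrp1 had nearly the same level in the 2 controls, with FLAG at 0.985 of sh-Luc (0.971 to 0.999), and the CACUL1 lines lay on either side of them. Scaling moved the log2 difference of the controls from -0.02 to -0.15 (quantile) or 0.27 (median of ratios). After overexpression Lrp1 was 2.29-fold higher (2.26 to 2.32), and after knockdown it was 6.14-fold lower (5.97 to 6.32). The log2 differences were 1.19 and -2.57 against the matched control and 1.17 and -2.55 against the other. Lrp1 and Apod were the 2 genes of the 8 that were higher in FLAG-CACUL1 and lower in sh-CACUL1, a combination that 3.02% of all genes showed.

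**Figure D3:**
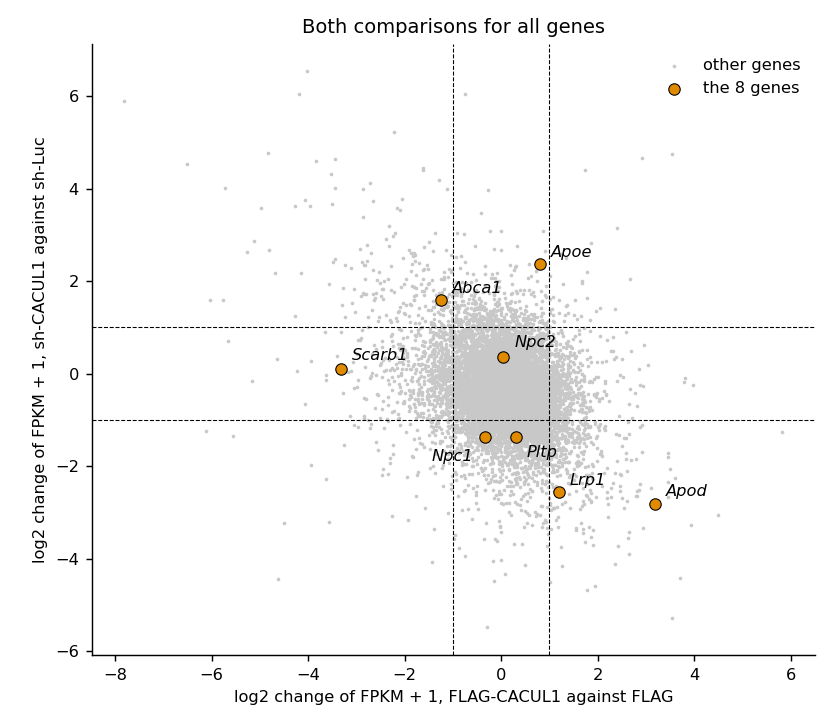
Log2 difference of FPKM + 1 in FLAG-CACUL1 against FLAG (horizontal axis) and in sh-CACUL1 against sh-Luc (vertical axis) for all genes (grey) and the 8 genes (orange), with dashed lines at 2-fold. Abca1 is in the upper left field, Lrp1 and Apod are in the lower right field, and Npc2 is the 1 orange point inside all 4 lines.

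How far 2 lines without a CACUL1 construct lay apart can be read from the controls. In FLAG against sh-Luc, Abca1 was higher with a log2 difference of 2.79 and Scarb1 with 2.67, as were 8.58% of all genes past 2-fold, and Apod was lower with -5.05, as were 12.4% of all genes. For Abca1 and Apod these differences exceeded those of both CACUL1 comparisons, and for Scarb1 that of the knockdown. For Apoe and Lrp1 the knockdown difference exceeded that between the controls, which came to -0.61 and -0.02, and it did so with both other scalings. For Npc1 and Pltp the control difference was 0.98 and 0.80, smaller than that of the knockdown, but with median-of-ratios scaling it was 1.27 against -0.94 for Npc1 and 1.09 against -0.91 for Pltp, and with quantile normalization 1.07 against -0.98 for Npc1. For Npc2 the controls differed by 0.75, more than either CACUL1 comparison. The controls also differed in vector type and selection drug, and these cannot be told apart from the line itself.

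The state of differentiation moved with these comparisons. Of 8 measured adipocyte markers, all were 2-fold or more lower in FLAG-CACUL1 and all 2-fold or more higher in sh-CACUL1, and their summed level was 7300 FPKM in FLAG against 370.4 in FLAG-CACUL1, and 1332 in sh-Luc against 16469 in sh-CACUL1. The labels call the cells preadipocytes, but on day 8 Fabp4, the fatty acid carrier of adipocytes, stood at 320.4 FPKM or more in each line, while Slc2a4, the insulin-sensitive glucose transporter, was at 0.101 FPKM in FLAG-CACUL1. The controls were unlike in this too, with 7 of these 8 markers 2-fold or more higher in FLAG. The summed level of 8 measured preadipocyte and fibroblast markers was 6379 FPKM in FLAG against 10390 in FLAG-CACUL1, and 4544 in sh-Luc against 933.7 in sh-CACUL1, with 5 higher and 1 lower after overexpression and 2 higher and 5 lower after knockdown. The collagen genes Col1a1, Col1a2 and Col3a1 made up most of this sum, at 2412, 1524 and 2157 FPKM in FLAG. It is thus mainly a collagen level. The preadipocyte marker Dlk1 was the 1 lower after overexpression, from 97.2 FPKM in FLAG to 39.4 in FLAG-CACUL1. The 2 higher after knockdown were Dlk1 and Thy1, under 1 FPKM in sh-Luc and at 21.2 and 34.3 FPKM in sh-CACUL1. Lrp1 and Pltp shared the order of the sum at its ends, highest in FLAG-CACUL1 and lowest in sh-CACUL1. Dlk1 and Thy1 did not share it, as both were lowest in sh-Luc. Nor did Pdgfra, which was highest in sh-Luc, at 84.9 FPKM, and lowest in FLAG, at 13.0 FPKM. In bulk RNA, fewer cells of a type and less RNA per cell cannot be told apart, and the part of the cell state in the values of the 8 genes was not tested.

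Apoe, Npc2 and Lrp1 are also expressed by macrophages. Of 7 macrophage markers 4 were measured (Adgre1, Itgam and Ptprc are not analysed here), and their summed level was 39.97 FPKM in FLAG against 110.5 in FLAG-CACUL1, and 9.13 in sh-Luc against 6.41 in sh-CACUL1. Csf1r, which defines the lineage, was at most 0.61 FPKM. After overexpression 2 of the 4 were higher, Lyz2 at 66.5 FPKM and Cd14 at 42.2 FPKM in FLAG-CACUL1, and 1 was lower, Cd68, at 16.2 FPKM in FLAG and 1.44 in FLAG-CACUL1. After knockdown none was higher and 1 was lower. The sum was lowest in sh-CACUL1, the line in which Apoe was highest. The part of any macrophages in the values of Apoe, Npc2 and Lrp1 was not tested. The 1 measured endothelial marker, Pecam1, was at most 0.301 FPKM.

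The knockdown comparison leaned with transcript length, which bears on the 2 longest genes, Lrp1 and Abca1. The length classes hold only genes that reached 1 FPKM or more in every line. Their median log2 difference in sh-CACUL1 against sh-Luc went from 0.05 for transcripts of up to 1000 bases to -0.66 above 7000 bases. In between, the median was -0.29 at 1000 to 2000 and -0.52 at 3000 to 5000. After overexpression it stayed between 0.09 and 0.16 in all length classes. Relative to the 588 genes above 7000 bases, Lrp1 was still lower by a log2 difference of -1.91, and 6 of the 588, Lrp1 included, were as low. Abca1 went against the trend, 2.24 above the median of that class, and 3 of the 588, Abca1 included, were as high. Npc1 stood at -0.79 from the median of its class and Pltp at -1.08, with 109 of 981 and 131 of 2130 genes as low, so these 2 were less set apart from genes of like length. What lies behind the length trend was not tested.

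**Figure D4:**
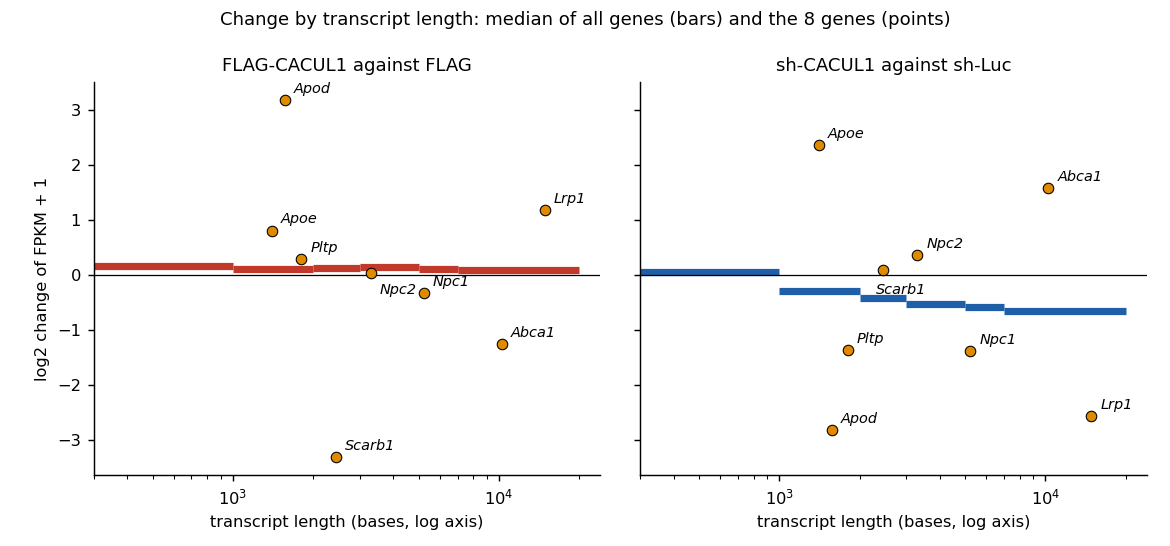
Log2 difference of FPKM + 1 (vertical axes) against transcript length in bases (log axes) for FLAG-CACUL1 against FLAG (left) and sh-CACUL1 against sh-Luc (right). Thick bars are medians in 6 length classes, taken over genes that reached 1 FPKM or more in every line, and points are the 8 genes. The bars are level on the left and descend from 0.05 to -0.66 on the right, where Abca1 is far above and Lrp1 far below the bar of its class.

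Since the median of all genes in sh-CACUL1 against sh-Luc was -0.30, and quantile normalization or median-of-ratios scaling moved it to -0.01 or 0.01, the knockdown values were also read relative to that median. On this scale they were 1.89 for Abca1, 2.67 for Apoe, -2.51 for Apod, -1.07 for Npc1, 0.67 for Npc2, 0.40 for Scarb1, -2.27 for Lrp1 and -1.06 for Pltp. The 2 higher and 4 lower calls became 2 higher and 3 lower with quantile normalization, which took Npc1 under 2-fold. They became 2 higher and 2 lower with median-of-ratios scaling, which took Pltp under 2-fold as well. Over all 13085 genes, 647 higher and 2141 lower calls became 1178 and 1084 with quantile normalization and 1231 and 975 with median-of-ratios scaling.

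The rest of the pathway was described with 7 lists of other genes of sterol and lipoprotein handling, which hold 99 genes, 77 of them measured. After overexpression 6 of the 77 were called higher (7.79%, beside 7.51% of all genes) and 22 lower (28.6%, beside 7.22%), with a median log2 difference of -0.26. Against the other control, sh-Luc, this split became 7 higher and 8 lower, beside 659 higher and 637 lower of all 13085 genes. After knockdown 16 were higher (20.8%, beside 4.94% of all genes) and 18 lower (23.4%, beside 16.4%), with a median of -0.33. This split became 19 and 12 with quantile normalization, beside 1178 and 1084 of all 13085 genes. It became 20 and 10 with median-of-ratios scaling, beside 1231 and 975 of all genes. Against the other control, FLAG, it became 4 higher and 22 lower, beside 975 and 2016 of all genes. Of the 17 listed genes called in both comparisons, 16 had opposite signs. Of these, 11 were lower in FLAG-CACUL1 and higher in sh-CACUL1 as Abca1 was, and 5 the reverse as Lrp1 and Apod were. Over all 13085 genes, 221 (1.69%) had the first combination and 395 (3.02%) the reverse. Of the 16 listed genes, Apol9b alone kept both calls against the other control, and 9 turned sign in at least 1 of the comparisons. The gene outside the 16, Lbp, encodes a lipid-binding protein of the same family as Pltp and was higher in both, at 27.2 FPKM in FLAG against 63.7 in FLAG-CACUL1, and 1.20 in sh-Luc against 5.67 in sh-CACUL1. The lists were chosen with earlier results of these samples known, and no list was tested.

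The list nearest to Abca1 holds the LXR genes, genes of their RXR partners and other LXR targets. Of 9 measured genes, none was higher and 4 were lower after overexpression, and 3 were higher and 1 lower after knockdown. For this and the following lists, the shares of all genes after overexpression were 7.51% higher and 7.22% lower. After knockdown they were 4.94% higher and 16.4% lower. Nr1h3, which encodes LXRα, stood at 14.5 FPKM in FLAG against 4.04 in FLAG-CACUL1, and 1.03 in sh-Luc against 42.2 in sh-CACUL1, with log2 differences of -1.62 and 4.41. Lpcat3, an LXR target that remodels membrane phospholipids, was at 86.8, 20.6, 53.4 and 155.9 FPKM in the same order of lines, with -2.03 and 1.53. Both were higher in sh-CACUL1 than in either control, whereas in FLAG-CACUL1 Lpcat3 was below both controls and Nr1h3 only below FLAG. Arl4c, a small GTPase that is also an LXR target, went the other way after knockdown, from 7.88 to 0.285 FPKM (-2.79). The 3 genes therefore did not share 1 course.

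Among 10 measured ABC transporters other than Abca1, 2 were higher and 2 lower after overexpression, and 1 was higher and 4 lower after knockdown. Abcg1, which exports cholesterol to mature HDL and is also an LXR target, was at 5.40 FPKM in FLAG against 0.485 in FLAG-CACUL1, and 0.0495 in sh-Luc against 1.05 in sh-CACUL1. It had the order of Abca1, highest in FLAG and lowest in sh-Luc, with log2 differences of -2.11 and 0.96. Abca8a and Abca8b ran against it, higher after overexpression (1.71 and 1.56) and lower after knockdown (-1.22 and -1.92). Abca8a was at 0.133 FPKM in FLAG and 8.17 in sh-Luc. Against the other control its signs turned, to -1.31 for FLAG-CACUL1 and 1.80 for sh-CACUL1. Abca8b came to -0.42 and 0.05 there, both under 2-fold. The neighbouring genes Abca8a and Abca8b are related copies. How reads shared by them were assigned is not given in the sources used here. Abca9, of the same cluster, was at 4.69 FPKM in sh-Luc and 0.459 in sh-CACUL1 (-1.96).

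Of the other apolipoprotein genes, 9 of 20 were measured, with 1 higher and 2 lower after overexpression and 4 higher and 3 lower after knockdown. Apoc1 had the widest differences, -2.16 and 3.59. Apol6, a member of the apolipoprotein L family, was at 1.73 FPKM in FLAG-CACUL1 against 5.95 in FLAG, and at 7.57 in sh-CACUL1 against 2.00 in sh-Luc. Apol9a and Apol9b, near-identical copies of the same family, were lower after knockdown, at 0.341 and 0.192 FPKM in sh-CACUL1 against 8.80 and 8.16 in sh-Luc. Reads of these copies could have been assigned to either one, so the 2 rows are not independent.

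Of 16 measured lipoprotein receptors and their chaperones, 1 was higher and 5 lower after overexpression, and 1 higher and 4 lower after knockdown. Cd36, a class B scavenger receptor like Scarb1 and a fatty acid carrier, stood at 120.5 FPKM in FLAG against 34.4 in FLAG-CACUL1, and 59.5 in sh-Luc against 325.6 in sh-CACUL1. It parted from Scarb1 after knockdown, with a log2 difference of 2.43 where that of Scarb1 was 0.09. Vldlr, the VLDL receptor, was at 28.1 FPKM in FLAG against 8.05 in FLAG-CACUL1, and 2.46 in sh-Luc against 0.822 in sh-CACUL1. It was lower after overexpression, with a log2 difference of -1.69, and after knockdown came to -0.92, under 2-fold. The controls differed by 3.07 for Vldlr, more than either comparison. Against sh-Luc, FLAG-CACUL1 was higher for Vldlr, at 1.39, while sh-CACUL1 was below both controls. Lrp11, in contrast, had the signs of Lrp1, 1.16 and -1.18, and Lrp4 was lower after knockdown (-1.71) at 3.20 FPKM or less.

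All 23 genes of lysosomal handling and of sterol transfer between membranes were measured. After overexpression 1 was higher and 7 lower, and after knockdown 4 were higher and 4 lower. The 4 genes that were higher after knockdown were also lower after overexpression, each against its own control. They were Gramd1a (-1.26 and 1.48) and Gramd1b (-1.90 and 1.51), which carry plasma membrane cholesterol to the endoplasmic reticulum, Scp2 (-1.65 and 1.20), the sterol carrier protein, and Tmem97 (-1.42 and 1.02), which binds NPC1. All 4 were also higher in FLAG than in sh-Luc, by log2 differences of 1.33 to 1.88, and none reached 2-fold against the other control. There Gramd1a came to 0.11 in both lines, Gramd1b to -0.57 in FLAG-CACUL1 and 0.18 in sh-CACUL1, Scp2 to 0.23 and -0.68, and Tmem97 to 0.27 and -0.67. Osbpl5, an oxysterol-binding protein relative, had the reverse signs (1.06 and -1.28). Cav1, the coat protein of caveolae, was at 602.7 FPKM in FLAG and 166.3 in FLAG-CACUL1 (-1.85), and its knockdown value of 0.56 was under 2-fold.

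The hydrolases of cholesteryl esters lay far apart. Lipe, the hormone-sensitive lipase that also hydrolyses cholesteryl esters, was at 103.3 FPKM in FLAG against 8.60 in FLAG-CACUL1, and 33.6 in sh-Luc against 191.7 in sh-CACUL1. Its log2 differences were -3.44, the largest decrease of the 77 genes after overexpression, and 2.48. Nceh1, another neutral cholesteryl ester hydrolase, went from 8.70 FPKM in sh-Luc to 1.11 in sh-CACUL1 (-2.20). Of these 7 measured genes none was higher and 2 were lower after overexpression, and 1 was higher and 2 lower after knockdown. Of 4 measured genes of plasma lipid transfer and lipolysis, Lpl, the lipase that frees fatty acids from lipoproteins, was lower after overexpression (-1.16) and higher after knockdown (1.57), at 1143, 511.8, 356.8 and 1060 FPKM in the 4 lines.

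**Figure D5:**
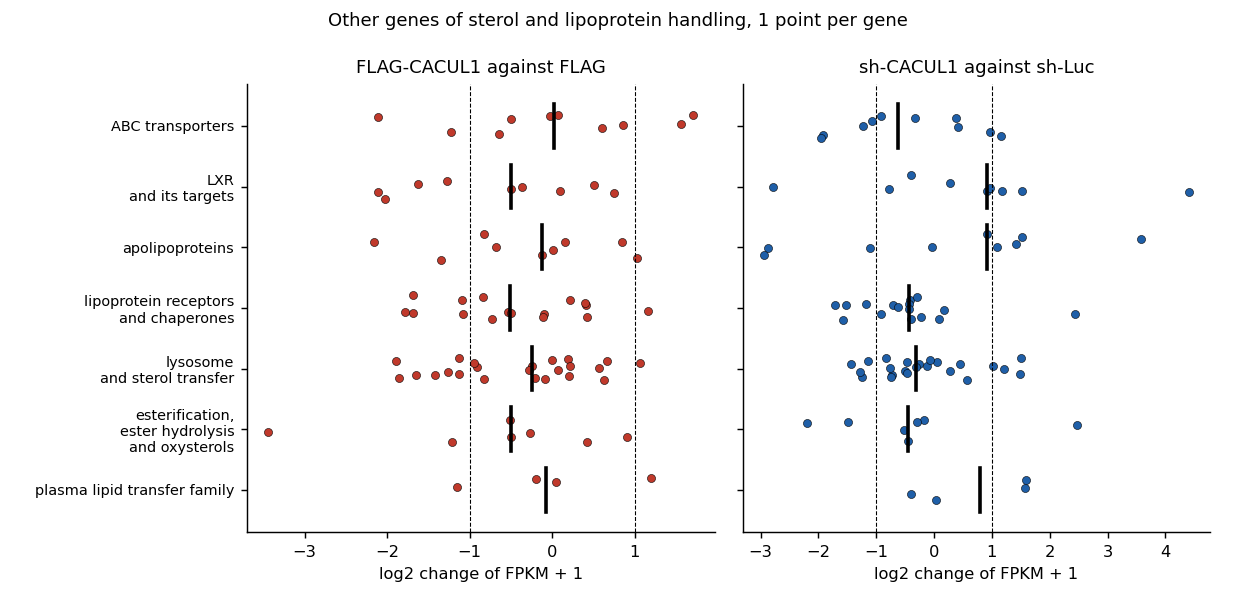
Log2 difference of FPKM + 1 for 77 other genes of sterol and lipoprotein handling in 7 lists, for FLAG-CACUL1 against FLAG (left) and sh-CACUL1 against sh-Luc (right); each point is 1 gene (Abcg1 is drawn in 2 lists and counted once), black bars are list medians and dashed lines mark 2-fold. More points lie below the lower line than above the upper one on the left (22 and 6), and about as many on each side on the right (18 and 16).

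The genes most like the 3 most variable of the 8 were sought by the distance between centred log2 profiles over the 4 samples, among 9563 genes with at least 1 FPKM in every sample. The nearest to Lrp1 were Ctsl, which encodes the lysosomal protease cathepsin L, at a distance of 0.252, and the collagen genes Col1a2 at 0.261 and Col3a1 at 0.288. Those collagen genes are also among the fibroblast markers above. The nearest to Apod were Gas1 at 0.769, Cdh11 at 1.06 and Sned1 at 1.07, all with their highest level in sh-Luc and lowest in FLAG. The nearest to Scarb1 were Cdk18 at 0.524, Lims2 at 0.54 and Itpk1 at 0.562, all highest in FLAG. With 4 points per profile many genes resemble each other, so likeness is a description only. Among the 8 genes themselves, Npc1 and Pltp were the closest pair, at 0.461, and Apod and Scarb1 the most distant, at 5.87.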

How the data were processed

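RNA from 4 stable 3T3-L1 lines (sh-CACUL1 and its control sh-Luc, FLAG-CACUL1 and its control FLAG, 1 sample each) was sequenced by a company as mRNA-seq. The authors deposited FPKM per RefSeq row (13110 rows), with mm10 given in the submitters' processing notes; the aligner and counting program are not given in the sources used here. Identifiers were joined to symbols through GENCODE M21 (12914 rows) and a RefSeq table of GRCm38.p6 (149 rows); 47 rows had no symbol, 8 had several, and 50 rows of 25 symbols were summed, which left 13085 genes. Differences are log2 ratios of FPKM + 1 with a 2-fold cut-off and no filter. Each group had 1 sample, so nothing was tested. Fragments were estimated from the steps of FPKM multiplied by length in low rows of at least 3000 bases, where 78.1% to 81.2% of values lay within 0.25 of a whole step; 1 fragment on 2 kb was worth 0.0208 to 0.0351 FPKM.

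The 8 genes, the lists and the markers were chosen with earlier results of these data known. Named besides the 8 were Cacul1, listed genes called in both comparisons or among the 12 largest differences in either, with at least 1 FPKM in a sample, and the 3 nearest profiles of 3 genes. Of these, 1 gene is not reported here. Apoc1 is also named as the neighbour of Apoe, and single markers as parts of their sums. Alternatives were pseudocounts of 0.1 and none, filters at 1 FPKM in any or all samples, quantile normalization, median-of-ratios scaling, the row with the highest mean, cut-offs of 1.5-fold and 3-fold, and the other control. Promoter sequences came from RefSeq (GRCm38.p6). Scripts were tested on simulated data. Python 3.11.15, numpy 2.4.6, pandas 2.3.3, scipy 1.17.1 and matplotlib 3.10.9 were used.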

Additional observations from a re-analysis of the deposited data

How the results depend on the processing

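With 1 sample per line the spread between cultures is unknown, the depths are estimates, and Apoe rests on 29 to 380 fragments. No paired analysis was possible because each group holds 1 sample and no result comes from a test. The 13 called differences of the 8 genes gave 101 recomputed values, of which 39 could not move, since each gene has 1 row and passes both filters. Of the other 62, 58 kept their direction and 54 of these also 2-fold. The 4 that turned were those of Abca1 and Apod against the other control, at 1.54 and -1.85 for FLAG-CACUL1 and at -1.21 and 2.23 for sh-CACUL1. Scarb1 in FLAG-CACUL1 against sh-Luc was -0.65, and the others that went under 2-fold were Npc1 and Pltp after knockdown with other scalings. Among 83 recomputed values of uncalled differences, 10 reached 2-fold, among them Scarb1 in sh-CACUL1 against FLAG at -2.57 and Pltp in FLAG-CACUL1 against sh-Luc at 1.10. The 83 include those under both filters and the row with the highest mean, which could not move either. At 3-fold, 2 of the 8 genes in place of 4 were called after overexpression and 3 in place of 6 after knockdown, beside 5.07% and 7.15% of all genes. Between the controls 6 in place of 3 were called with median-of-ratios scaling and 7 at 1.5-fold, beside 19.1% and 43.0% of all genes. Of the 77 other genes, 28 were called after overexpression, 12 at 3-fold, 43 at 1.5-fold and 15 against the other control (7 higher and 8 lower, in place of 6 and 22). The shares of all genes called were 14.7%, 5.07%, 34.3% and 9.9% in the same order. After knockdown 34 were called, 12 at 3-fold and 26 against the other control (4 higher and 22 lower, in place of 16 and 18). There the shares of all genes were 21.3%, 7.15% and 22.9%. Over all genes without a pseudocount, 2192 were called higher and 1583 lower after overexpression and 1362 and 3437 after knockdown. In the knockdown comparison, 647 higher and 2141 lower genes became 1178 and 1084 with quantile normalization and 1231 and 975 with median-of-ratios scaling. The cause of these shifts was not tested.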
